A study of Mus musculus with 15 samples.

Results

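The genes described here are 45 genes of the G1-S transition and of DNA replication, listed by what their products do. They were chosen with earlier results of these data known. All 45 symbols were found among the 24819 genes of both deposited expression tables, and all 45 passed the filter on low values, which left 12249 genes for testing. RNA was sequenced from the mouse embryonic stem cell line E14, kept on gelatin in serum with leukemia inhibitory factor, after transfection with siRNA. The groups were siRpl11, siRpl14, siRpl18 and siRpl23, each with an siRNA against 1 protein of the large (60S) ribosomal subunit, and siNT, with a non-targeting siRNA. Each group had 3 libraries: replicates 1 and 2 in a first table, on which all tests rest, and the third library in a second table that was normalized on its own and is given by its values without a test. All groups share this single line and its culture medium, and the labels do not say whether replicates were separate cultures, so p-values measure the spread between these libraries. The titles name 48 h, the protocol names 3 days of knockdown, and which of these applies was not settled.

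DNA replication is prepared in G1, when the origin recognition complex (ORC), Cdc6 and Cdt1 load the MCM2-7 helicase onto origins. At the G1-S transition, kinases with D-type and E-type cyclins inactivate the retinoblastoma protein, which frees E2F factors to activate genes for licensing, polymerases and deoxynucleotide synthesis. Mcm10 and the GINS complex then help to start the helicase, polymerase alpha with primase lays down primers, and polymerases delta and epsilon extend them with the PCNA clamp. Mouse embryonic stem cells are known for a short G1 phase and for spending much of their cycle in S phase.

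The siRNA targets were reduced to 24.0% (Rpl11), 51.6% (Rpl14), 32.6% (Rpl18) and 36.3% (Rpl23) of their mean FPKM in siNT libraries, and to 19.9%, 38.5%, 31.2% and 31.1% in the third libraries. Replicates 1 and 2 correlated across genes with r of 0.991 to 0.996 on the log2(FPKM + 1) scale. FPKM carries no read count, and the number of reads behind each value is not known. As a rough estimate, and as a multiple of the depth of an siNT library in the same table, depth lay between 0.699 and 1.39 among replicates 1 and 2. It lay between 0.999 and 1.25 among the third libraries. All 8 markers of mouse embryonic stem cells were at 1 FPKM or more in every group, and in replicates 1 and 2 their summed level was 5018 to 6585 FPKM in knockdown libraries and 7546 to 7959 FPKM in siNT libraries. The third libraries lay closer together, at 5890 to 6577 FPKM in knockdowns and 6867 FPKM in siNT. Dppa5a was the largest part of the sum, with means of 2760 to 3680 FPKM in knockdowns and 4199 FPKM in siNT. Sox2 was higher in all 4 knockdowns (means of 237 to 278 FPKM, against 218 in siNT). Pou5f1 was higher in siRpl11 (1076 FPKM, against 948 in siNT) and lower in the other knockdowns (766 to 772). Nanog, Klf4, Esrrb, Zfp42, Dppa5a and Tdgf1 were lower in all 4. Of 7 fibroblast or feeder markers, Dcn and Lum were at 0 in all 5 groups, and the sum was 4.18 to 9.50 FPKM in replicates 1 and 2 of the knockdowns and 16.7 to 16.9 FPKM in those of siNT (the third libraries, 6.90 to 11.5 and 20.3). Trophectoderm markers (7 genes) summed to 8.59 to 9.81 FPKM in siRpl11, 50.9 to 53.9 in siRpl14, 29.3 to 31.5 in siRpl18 and 46.3 to 48.8 in siRpl23, against 12.2 to 13.1 in siNT, with 10.4, 66.9, 33.7 and 56.5 in the third libraries of these knockdowns, against 13.5 in siNT. Genes of the 2-cell-like state (4 of 6 listed were in the table, with Gm4340 at 0) summed to 20.0 to 22.7 FPKM in siRpl11, 97.6 to 104 in siRpl14, 86.0 to 93.4 in siRpl18 and 85.1 to 100.1 in siRpl23, against 40.4 to 42.9 in siNT. Their sums in the third libraries were lower throughout, at 5.73, 43.7, 28.0 and 30.7 FPKM in the same knockdowns, against 10.7 in siNT. The 6 primitive endoderm markers summed to 5.01 to 7.66 FPKM in replicates 1 and 2 of the knockdowns and 3.40 to 3.46 FPKM in those of siNT (the third libraries, 2.73 to 4.32 and 2.24). The part of these markers in the results below was not tested.

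Replication genes were abundant in these cells: their siNT means spanned 3.26 FPKM (Ccne2) to 299.9 FPKM (Pcna), with a median of 54.8 FPKM against 10.3 FPKM over all genes tested. FPKM is a level per transcript length, so genes can be set side by side, although small gaps in this order lie within the replicate spread. In each knockdown taken alone, most of these genes fell, by amounts that were small for each gene. In siRpl11 this did not hold under another scaling of the libraries, given below. In siRpl11, 25 of 45 fell and 9 rose, where 43.6% of all tested genes fell, 27.3% rose and 70.9% did either. In siRpl14, 30 fell and 4 rose, against 29.5%, 33.3% and 62.8% of all tested genes that fell, rose or did either. In siRpl18, 36 fell and 6 rose, against 34.7%, 32.8% and 67.6%. In siRpl23, 31 fell and 4 rose, against 30.8%, 34.9% and 65.7%. Of the members, 55.6% fell in siRpl11, 66.7% in siRpl14, 80.0% in siRpl18 and 68.9% in siRpl23. A gene counts as having risen or fallen at an adjusted p under 0.05 in limma's test across all 12249 genes. In these bulk samples, fewer cells in S phase and less of an RNA per cell cannot be told apart.

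The median log2 change of the 45 genes was -0.20 in siRpl11, -0.27 in siRpl14, -0.30 in siRpl18 and -0.26 in siRpl23, while that of all genes tested was -0.11, 0.02, -0.02 and 0.02. The siRpl11 libraries stood lower over all genes, and scaling each library by its median ratio moved the median of all genes there to 0.01. Under that scaling 17 members fell and 14 rose in siRpl11, while 4288 of all 12249 tested genes fell and 4451 rose. Quantile normalization gave 27 lower and 10 higher in siRpl11, with 4119 lower and 4269 higher over all genes. In siRpl14, siRpl18 and siRpl23 the same scalings gave 32 to 37 lower and 3 to 6 higher. Over all genes they gave 3879 to 4525 lower and 3617 to 4201 higher there. Only Pola2 in siRpl11 moved by more than 2-fold. By gene, 21 members fell in all 4 knockdowns, 3 rose in all 4 (Orc2, Orc6 and Fen1), 6 fell in siRpl14, siRpl18 and siRpl23 without passing in siRpl11 (Cdt1, Mcm2, Gins1, Pold1, Pole and Rpa2), 5 passed in opposite directions in different knockdowns (Mcm5, Pola1, Prim1, Rrm2 and Tyms), and Rpa3 passed in none. The other 9 passed in some knockdowns and in 1 direction (Rfc3, Rfc4, Rfc5, Prim2, Pole2, Tk1, Slbp, Ccne2 and Ccnd1). Under median-ratio scaling, 8 of the 21 (Mcm3, Mcm4, Mcm6, Gins2, Rfc1, Pold2, Rpa1 and Lig1) lost their siRpl11 call, which leaves 13. All 4 comparisons share the siNT libraries, so these counts are not independent of each other.

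**Figure D1:**
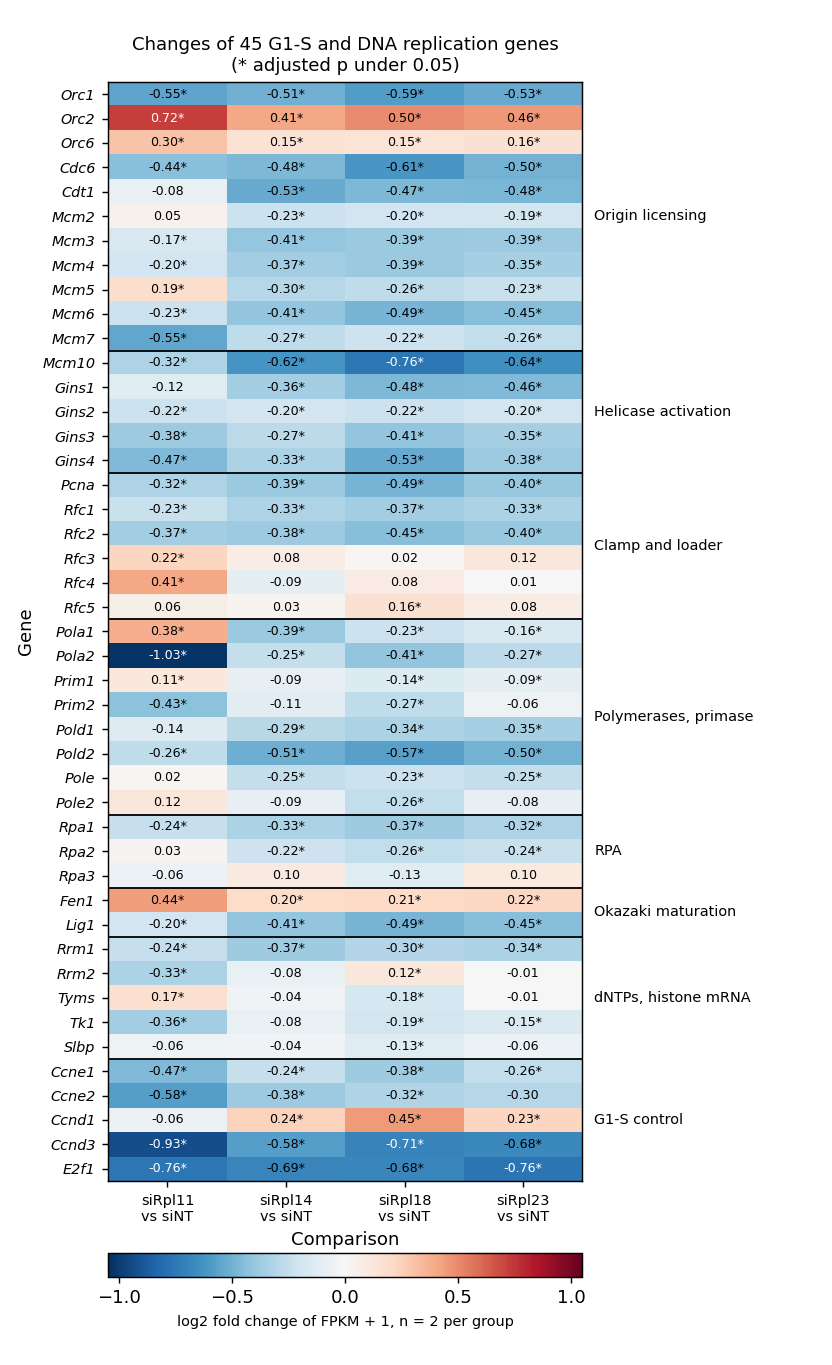
Log2 fold change of FPKM + 1 for each of the 45 genes (rows, by role) in siRpl11, siRpl14, siRpl18 and siRpl23 against siNT (columns), with 2 libraries per group and a star at an adjusted p under 0.05. Blue fields (lower in the knockdown) fill most rows, Orc2, Orc6 and Fen1 are red in all 4 columns, and the siRpl11 column differs most from the others at Pola1 (0.38) and Pola2 (-1.03).

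In the third libraries, nearly all of these directions recurred. Of the members that passed, 33 of 34 in siRpl11, 31 of 34 in siRpl14, 39 of 42 in siRpl18 and 32 of 35 in siRpl23 had the same sign there. Over all genes that passed, the share with the same sign was 91.8%, 91.0%, 90.7% and 88.9%. The exceptions were mostly rises: all 30 falls in siRpl14 and all 31 in siRpl23 had the same sign, but only 1 of 4 rises in each did, that of Orc2. Orc6, Fen1 and Ccnd1 went the other way in both. In siRpl18, the exceptions were Orc6, Mcm7 and Gins2, and in siRpl11 the exception was Pold2.

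**Figure D2:**
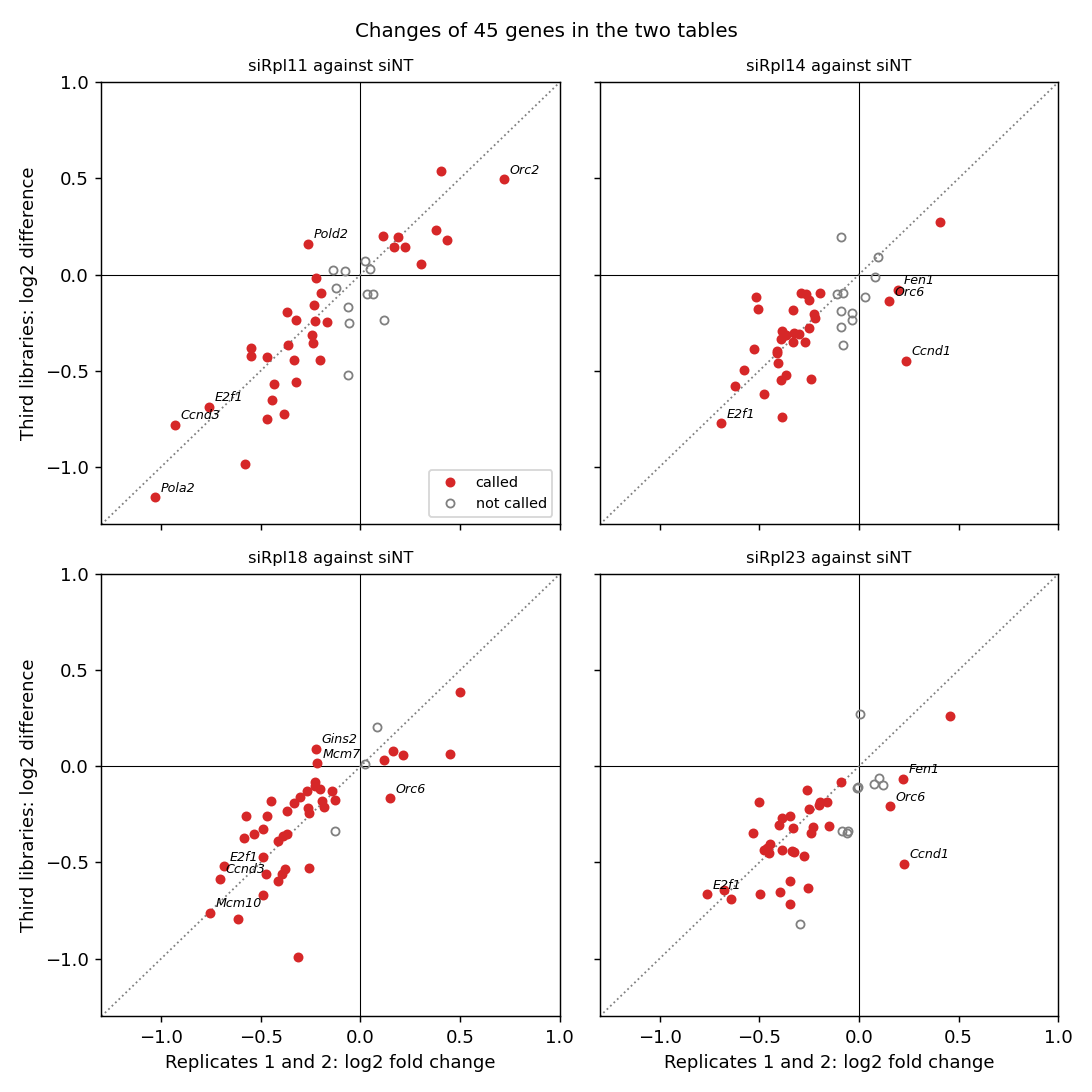
Log2 fold change from replicates 1 and 2 (horizontal axis) against the log2 difference between the third libraries (vertical axis) for the 45 genes, 1 panel per knockdown, both on the log2(FPKM + 1) scale. Filled points passed at an adjusted p under 0.05; most lie below 0 on both axes, and Orc6, Fen1 and Ccnd1 lie below 0 on the vertical axis in siRpl14 and siRpl23.

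Many of these genes are known E2F targets, so their promoters were searched for E2F letters. RefSeq promoter windows of assembly GRCm38.p6 (250 bases before to 50 after a gene's start) matched 36 of the 45 genes by symbol; Rfc2, Mcm4, Gins1, Pole, Ccnd1, Prim2, Gins4, Ccne2 and Gins2 had no match. Searched on both strands, the E2F letters TTCGCGC and their variants TTGGCGC or TTCCCGC stood in at least 1 window of 20 of these 36 genes (55.6%) and of 9.20% of 27025 genes with a window. The CCAAT letters stood in 23 of 36 (63.9%, against 41.1%), and the CHR letters TTTGAA or TTCGAA in 6 of 36 (16.7%, against 21.7%). A match is a description of letters and says nothing of binding. The windows below belong to 2 pairs of partner subunits whose RNAs moved in opposite directions in siRpl11, namely Mcm5 and Mcm7 of the MCM2-7 helicase and Pola1 and Pola2 of polymerase alpha. Capitals mark the E2F letters, each window reads 5′ to 3′ on the gene's strand, and both Mcm5 and Mcm7 hold a stretch where TTCGCGC on 1 strand and TTGGCGC on the other share bases. For Mcm7, the first of its 2 windows is shown.
Mcm5 (chr8:75109259-75109558, plus strand): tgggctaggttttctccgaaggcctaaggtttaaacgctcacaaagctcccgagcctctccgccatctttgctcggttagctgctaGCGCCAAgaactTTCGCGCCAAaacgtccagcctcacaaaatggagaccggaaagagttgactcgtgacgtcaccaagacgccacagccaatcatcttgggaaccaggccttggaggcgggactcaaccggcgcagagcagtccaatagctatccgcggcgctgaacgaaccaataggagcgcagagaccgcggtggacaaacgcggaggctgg
Mcm7 (chr5:138171834-138172133, minus strand): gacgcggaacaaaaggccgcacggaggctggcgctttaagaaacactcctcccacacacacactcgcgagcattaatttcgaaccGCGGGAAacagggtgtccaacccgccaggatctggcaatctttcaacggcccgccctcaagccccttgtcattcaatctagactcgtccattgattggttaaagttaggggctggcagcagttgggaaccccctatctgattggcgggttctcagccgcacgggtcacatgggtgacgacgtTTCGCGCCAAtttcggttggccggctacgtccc
Pola1 (chrX:93632106-93632405, minus strand): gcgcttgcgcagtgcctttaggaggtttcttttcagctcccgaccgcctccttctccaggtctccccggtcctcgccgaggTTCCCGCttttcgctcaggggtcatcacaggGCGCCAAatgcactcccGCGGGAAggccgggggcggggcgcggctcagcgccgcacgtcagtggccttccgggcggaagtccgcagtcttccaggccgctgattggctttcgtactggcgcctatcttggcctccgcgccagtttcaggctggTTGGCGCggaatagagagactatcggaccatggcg
Pola2 (chr19:5964157-5964456, minus strand): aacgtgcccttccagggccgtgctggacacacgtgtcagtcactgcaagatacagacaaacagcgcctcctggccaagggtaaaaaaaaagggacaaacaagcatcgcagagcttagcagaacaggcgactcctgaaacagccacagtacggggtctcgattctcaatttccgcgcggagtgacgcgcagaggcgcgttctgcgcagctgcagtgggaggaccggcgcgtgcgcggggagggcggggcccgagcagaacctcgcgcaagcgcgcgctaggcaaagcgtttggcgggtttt

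The Mcm5 window holds 3 E2F matches, all upstream of the RefSeq start, and 3 CCAAT matches. The Mcm7 window also holds 3 of each, and an overlapping pair of its E2F matches begins at positions 18 and 21, counted from 1 at the start. The end of the Mcm5 window was found in no GENCODE M21 transcript of Mcm5, so its start is less certain. The ends of the Mcm7, Pola1 and Pola2 windows were found in transcripts of these genes. The Pola1 window holds 4 E2F matches, and the Pola2 window holds none of the letters searched. Only these fixed letters were searched, so windows without them may hold other forms of an E2F site. The groups with and without the letters are therefore not groups with and without E2F sites. Among the 20 genes with E2F letters, 14 fell and 1 rose in siRpl14, 16 fell and 1 rose in siRpl18, 15 fell and 1 rose in siRpl23, and 9 fell and 6 rose in siRpl11. Among the 16 without, 9 fell and 2 rose in siRpl14, 12 fell and 4 rose in siRpl18, 10 fell and 2 rose in siRpl23, and 10 fell and 3 rose in siRpl11. The median log2 change with and without the letters was -0.29 and -0.23 in siRpl14, -0.28 and -0.29 in siRpl18, -0.29 and -0.22 in siRpl23, and -0.11 and -0.29 in siRpl11. Of all tested genes, 29.5%, 34.7%, 30.8% and 43.6% fell in siRpl14, siRpl18, siRpl23 and siRpl11, and 33.3%, 32.8%, 34.9% and 27.3% rose. Their medians were 0.02, -0.02, 0.02 and -0.11, so in siRpl11 the genes with the letters lay near all genes by median.

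Most origin licensing genes fell, while Orc2 and Orc6, subunits of the complex that marks origins, rose. Of 11 licensing genes, 9 fell and 2 rose in each of siRpl14, siRpl18 and siRpl23, and 6 fell and 3 rose in siRpl11, where Mcm5 also rose and Cdt1 and Mcm2 did not pass. Orc2 was 41.2 and 38.8 FPKM in siRpl11, 33.0 and 30.9 in siRpl14, 33.9 and 34.3 in siRpl18, and 33.4 and 32.9 in siRpl23, against 24.9 and 22.8 in siNT. Every knockdown library lay above both siNT libraries, and siRpl11 lay above the others. The log2 change was 0.72 ± 0.05 (SE) in siRpl11, 0.41 ± 0.05 in siRpl14, 0.50 ± 0.05 in siRpl18 and 0.46 ± 0.05 in siRpl23 (limma adjusted p = 1.65e-06, 0.000116, 2.29e-05 and 4.54e-05). The third libraries gave 53.7, 46.0, 49.8 and 45.6 FPKM in siRpl11, siRpl14, siRpl18 and siRpl23, against 37.8 in siNT.

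Orc1, the largest ORC subunit, was 37.6 and 36.5 FPKM in siRpl11, with replicates 1 and 2 of all knockdowns between 35.1 and 39.0, against 52.9 and 56.6 in siNT, and its log2 change lay between -0.59 and -0.51. The third libraries held 28.2, 33.6, 29.3 and 29.8 FPKM of Orc1 in siRpl11, siRpl14, siRpl18 and siRpl23, against 38.2 in siNT. Orc1 was picked here after its values were seen, to be set beside Orc2 and Orc6. Orc6, the smallest subunit, rose by 0.30 ± 0.05 in siRpl11 and by 0.15 to 0.16 in the other 3, but in the third libraries it stood at 43.3, 42.5 and 41.2 FPKM in siRpl14, siRpl18 and siRpl23, against 47.7 in siNT. With all 15 libraries in 1 fit, with the table as a term, Orc6 no longer passed in these 3. Cdc6, the loading ATPase, fell in all 4, by 0.44 to 0.61 on the log2 scale. Cdt1, its partner in loading, fell by 0.53 in siRpl14, 0.47 in siRpl18 and 0.48 in siRpl23, with -0.08 ± 0.05 in siRpl11 (adjusted p = 0.152).

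The 6 subunits of the MCM2-7 ring, which act at 1 copy each, did not keep step in siRpl11. In siRpl14, siRpl18 and siRpl23 all 6 fell, with log2 changes between -0.49 (Mcm6 in siRpl18) and -0.19 (Mcm2 in siRpl23). In siRpl11, 4 fell, Mcm2 stood at 0.05 ± 0.04 (adjusted p = 0.292), and Mcm5 rose. Of those 4, Mcm3, Mcm4 and Mcm6 did not pass under median-ratio scaling, while Mcm7 did. Mcm5 was 299 and 316 FPKM in siRpl11, 213 and 225 in siRpl14, 217 and 233 in siRpl18, and 224 and 236 in siRpl23, against 262 and 278 in siNT. The siRpl11 libraries were the highest and the other knockdowns the lowest, with no overlap with siNT. Mcm5 changed by 0.19 ± 0.05 in siRpl11 and by -0.30 ± 0.05, -0.26 ± 0.05 and -0.23 ± 0.05 in siRpl14, siRpl18 and siRpl23 (adjusted p = 0.011, 0.000873, 0.00167 and 0.00381). The rise in siRpl11 did not pass without siNT replicate 1 (adjusted p = 0.0815) or without siRpl11 replicate 2 (adjusted p = 0.0852). The third libraries had the same order, with 262 FPKM in siRpl11 and 185, 197 and 184 FPKM in siRpl14, siRpl18 and siRpl23, against 229 FPKM in siNT.

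Mcm7 went the other way in siRpl11. It was 156 and 164 FPKM in siRpl11, 188 and 203 in siRpl14, 194 and 210.1 in siRpl18, and 192 and 199.8 in siRpl23, against 231 and 239 in siNT, and it fell by 0.55 ± 0.05 in siRpl11 and by 0.22 to 0.27 in the others. The ratio of Mcm5 to Mcm7 was therefore 1.91 and 1.92 in siRpl11 and between 1.11 and 1.18 in the other knockdowns, against 1.13 and 1.16 in siNT. In the third libraries it was 1.49 in siRpl11 and 0.849 to 0.870 in the other knockdowns, against 0.998 in siNT. This pair was chosen after the values were seen, and the ratio has no test of its own. Whether the counting used strand is not given in the sources used here, and 12 members have a gene of the tables on the opposite strand in the GENCODE M21 annotation (Orc2, Orc6, Mcm7, Gins2, Rfc2, Rfc4, Rfc5, Fen1, Lig1, Tk1, Ccne2 and Ccnd3), so their values are less certain.

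**Figure D3:**
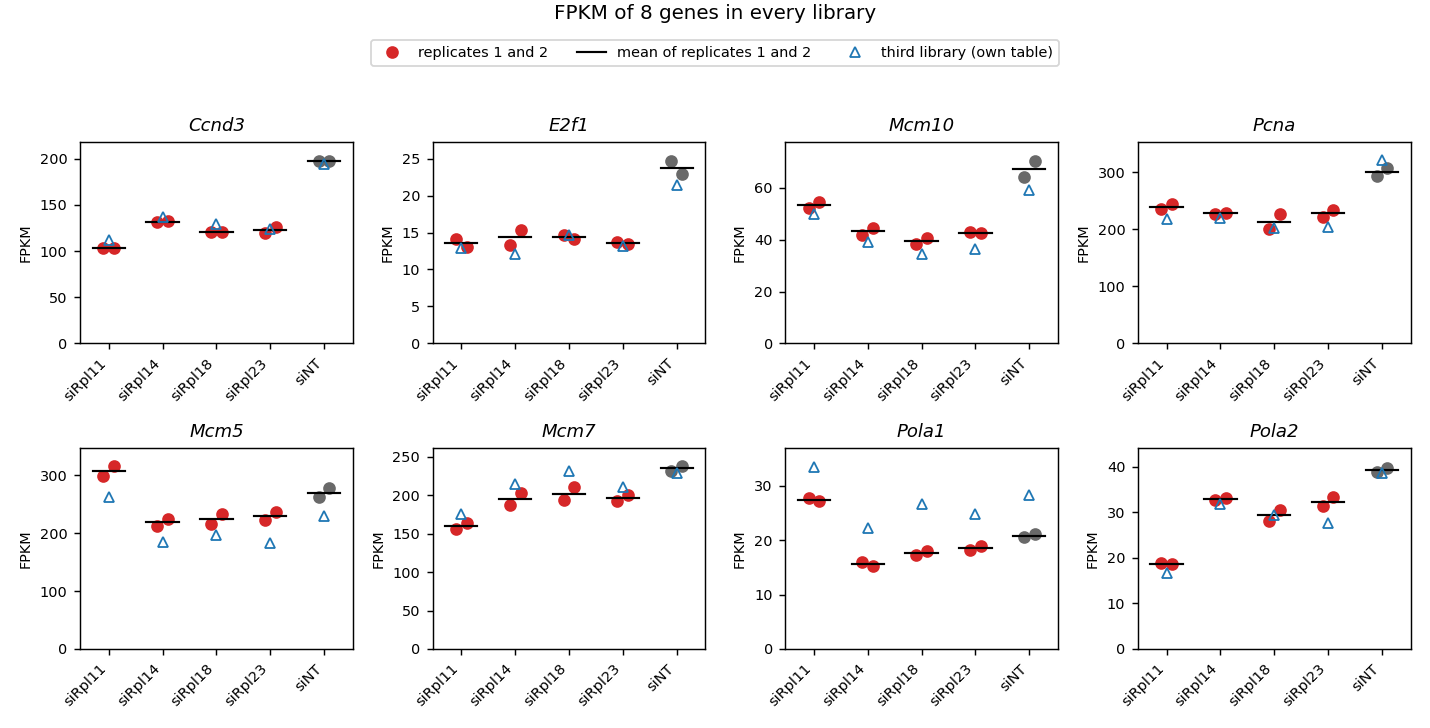
FPKM of 8 genes in every library, 1 panel per gene, with replicates 1 and 2 as filled points, their mean as a bar and the third library, from its own table, as an open triangle. Ccnd3, E2f1, Mcm10 and Pcna are lower in all 4 knockdowns than in siNT, while Mcm5 and Pola1 are highest in siRpl11 and Mcm7 and Pola2 are lowest there.

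Helicase activation genes fell without exception among those that passed: all 5 in siRpl14, siRpl18 and siRpl23, and 4 of 5 in siRpl11. Mcm10, which helps the loaded helicase to start, was 52.4 and 54.3 FPKM in siRpl11, 41.9 and 44.6 in siRpl14, 38.2 and 40.5 in siRpl18, and 42.8 and 42.4 in siRpl23, against 64.1 and 70.2 in siNT. All knockdown libraries were below siNT, with siRpl11 between siNT and the rest. Its log2 change was -0.32 ± 0.05 in siRpl11, -0.62 ± 0.05 in siRpl14, -0.76 ± 0.05 in siRpl18 and -0.64 ± 0.05 in siRpl23 (adjusted p = 0.000392, 5.9e-06, 1.19e-06 and 3.99e-06). The 4 GINS subunits, which join the helicase with Cdc45, changed by -0.53 (Gins4 in siRpl18) to -0.12 (Gins1 in siRpl11, adjusted p = 0.115). Gins2 was the least stable of them: in the third libraries it was 36.8, 34.9, 39.8 and 32.3 FPKM in siRpl11, siRpl14, siRpl18 and siRpl23, against 37.3 in siNT.

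The sliding clamp fell, while its loader split. Pcna, the clamp that holds polymerases on DNA, was 236 and 244 FPKM in siRpl11, 227 and 229 in siRpl14, 201 and 226 in siRpl18, and 221 and 234 in siRpl23, against 293 and 307 in siNT. No knockdown library reached the siNT range, and the third libraries held 201 to 219 FPKM in knockdowns, against 321 FPKM in siNT. Pcna changed by -0.32 ± 0.06, -0.39 ± 0.06, -0.49 ± 0.06 and -0.40 ± 0.06 in siRpl11, siRpl14, siRpl18 and siRpl23 (adjusted p = 0.000613, 0.000213, 3.87e-05 and 0.000186). Named processed pseudogenes exist for Pcna, Tyms and Ccnd3, so reads may be split in ways the sources do not record. Of the 5 RFC subunits, which open the clamp, Rfc1 and Rfc2 fell in all 4 knockdowns (-0.45 to -0.23). Rfc3 and Rfc4 rose in siRpl11 (0.22 ± 0.05 and 0.41 ± 0.11), and Rfc5 in siRpl18 (0.16 ± 0.05), with no call in the other knockdowns. Rfc4 was the least even of the 45 between siNT replicates, at 35.9 and 27.9 FPKM.

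Polymerase alpha and primase split widely in siRpl11, where the log2 changes of the 4 subunits spanned 1.41, against 0.22 to 0.30 in the other knockdowns. Pola2, the regulatory subunit, was 18.9 and 18.6 FPKM in siRpl11, 32.7 and 33.1 in siRpl14, 28.2 and 30.4 in siRpl18, and 31.4 and 33.3 in siRpl23, against 38.9 and 39.8 in siNT. It stood in siRpl11 well below every other library, and the third libraries had 16.8 FPKM in siRpl11 and 27.8 to 31.8 FPKM in the other knockdowns, against 38.7 FPKM in siNT. Pola2 changed by -1.03 ± 0.05 in siRpl11, -0.25 ± 0.05 in siRpl14, -0.41 ± 0.05 in siRpl18 and -0.27 ± 0.05 in siRpl23 (adjusted p = 9.22e-08, 0.00137, 3.97e-05 and 0.000695). Pola1, the catalytic subunit, was 27.7 and 27.3 FPKM in siRpl11, 16.0 and 15.3 in siRpl14, 17.3 and 18.1 in siRpl18, and 18.2 and 19.0 in siRpl23, against 20.5 and 21.2 in siNT. It was highest in siRpl11 and below siNT in the other knockdowns, with log2 changes of 0.38 ± 0.05 in siRpl11, -0.39 ± 0.05 in siRpl14, -0.23 ± 0.05 in siRpl18 and -0.16 ± 0.05 in siRpl23 (adjusted p = 5.71e-05, 6.47e-05, 0.0019 and 0.0146). The Pola1 fall in siRpl23 did not pass without siNT replicate 2 or without siRpl23 replicate 1. The third libraries gave Pola1 33.4, 22.2, 26.7 and 24.8 FPKM in siRpl11, siRpl14, siRpl18 and siRpl23, against 28.3 in siNT.

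The ratio of Pola1 to Pola2 was accordingly 1.47 in both siRpl11 libraries and 0.463 to 0.613 in the other knockdowns, against 0.528 and 0.533 in siNT. In the third libraries it was 1.99 in siRpl11 and 0.699 to 0.911 in the other knockdowns, against 0.732 in siNT. The primase subunits split in the same way: Prim1, the catalytic one, was 47.0 and 47.5 FPKM in siRpl11 and 39.4 to 41.3 FPKM in the other knockdowns, against 43.5 and 43.8 FPKM in siNT. Its changes were small, at 0.11 ± 0.04 in siRpl11, -0.09 ± 0.04 in siRpl14, -0.14 ± 0.04 in siRpl18 and -0.09 ± 0.04 in siRpl23 (adjusted p = 0.02, 0.055, 0.00624 and 0.0497). The call in siRpl11 ended without siNT replicate 1, without either siRpl11 library, or with only the groups compared in the fit, and that in siRpl23 ended under 14 of 18 alternative settings. Prim2, the large subunit, fell by 0.43 ± 0.07 in siRpl11 and by 0.27 ± 0.07 in siRpl18, and stood at -0.11 ± 0.07 in siRpl14 and -0.06 ± 0.07 in siRpl23. The ratio of Prim1 to Prim2 was 2.26 and 2.37 in siRpl11 and 1.52 to 1.82 in the other knockdowns, against 1.65 and 1.48 in siNT. These ratios too were chosen after the values were seen.

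Polymerase delta and epsilon subunits, which copy the lagging and leading strands, fell in siRpl14, siRpl18 and siRpl23 where they passed. Pold2, the second subunit of polymerase delta, was 68.7 and 71.7 FPKM in siRpl11, 59.0 and 58.7 in siRpl14, 54.7 and 58.1 in siRpl18, and 57.0 and 62.0 in siRpl23, against 83.3 and 85.6 in siNT. Its log2 change was -0.26 ± 0.05 in siRpl11, -0.51 ± 0.05 in siRpl14, -0.57 ± 0.05 in siRpl18 and -0.50 ± 0.05 in siRpl23. All first-table knockdown libraries were below siNT, but the third siRpl11 library, at 77.7 FPKM, was above the third siNT library, at 69.5 FPKM. With all 15 libraries the siRpl11 change was -0.12 and did not pass (adjusted p = 0.147), nor did it under median-ratio scaling. Pold1 and Pole, the catalytic subunits, fell by 0.29 to 0.35 and by 0.23 to 0.25 in siRpl14, siRpl18 and siRpl23. In siRpl11 they stood at -0.14 (adjusted p = 0.0523) and 0.02 (adjusted p = 0.612). Pole2 fell in siRpl18 (-0.26, adjusted p = 0.00556) and did not pass in the other 3.

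Single-strand binding protein RPA coats the DNA that the helicase exposes. Rpa1, its large subunit, was 103 and 102 FPKM in siRpl11, 92.7 and 99.7 in siRpl14, 94.3 and 92.5 in siRpl18, and 94.8 and 98.2 in siRpl23, against 120.3 and 122 in siNT. It was below siNT in every knockdown library, by 0.24 ± 0.04 on the log2 scale in siRpl11, a call that ended under median-ratio scaling, and by 0.32 to 0.37 in the others. Rpa2 fell in siRpl14, siRpl18 and siRpl23 by 0.22 to 0.26, with 0.03 in siRpl11 (adjusted p = 0.565). Rpa3, the smallest subunit, passed in no knockdown, at -0.13 to 0.10.

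The genes that join Okazaki fragments moved apart. Lig1, the ligase that seals nicks, was 104 FPKM in both siRpl11 libraries, 91.0 and 88.4 in siRpl14, 84.2 and 85.7 in siRpl18, and 86.6 and 88.7 in siRpl23, against 122 and 117 in siNT. It fell by 0.20 ± 0.04, 0.41 ± 0.04, 0.49 ± 0.04 and 0.45 ± 0.04 on the log2 scale in siRpl11, siRpl14, siRpl18 and siRpl23, and the siRpl11 call ended under median-ratio scaling. Fen1, the flap nuclease that acts just before it and a member picked after its values were seen, was 66.6 and 69.0 FPKM in siRpl11 and 56.1 to 59.7 FPKM in the other knockdowns, against 48.3 and 51.5 FPKM in siNT. Its rise of 0.44 ± 0.05 in siRpl11 kept its sign in the third libraries (65.9 FPKM, against 58.1 FPKM in siNT). Its rises of 0.20 and 0.22 in siRpl14 and siRpl23 did not, with 55.0 and 55.6 FPKM there, and they no longer passed with all 15 libraries.

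Among genes for deoxynucleotides and histone mRNA, the subunits of ribonucleotide reductase differed. Rrm1, the large subunit, fell in all 4 knockdowns: it was 84.0 and 85.6 FPKM in siRpl11, 75.8 and 78.7 in siRpl14, 80.4 and 81.8 in siRpl18, and 79.9 and 78.7 in siRpl23, against 98.6 and 102 in siNT. The log2 change was -0.24 ± 0.04 in siRpl11, -0.37 ± 0.04 in siRpl14, -0.30 ± 0.04 in siRpl18 and -0.34 ± 0.04 in siRpl23. Rrm2, the S-phase subunit, was 140.1 and 136 FPKM in siRpl11, 166 and 163 in siRpl14, 193 and 185 in siRpl18, and 171 and 175 in siRpl23, against 176 and 172 in siNT. It fell in siRpl11 (-0.33 ± 0.04, adjusted p = 3.56e-05) and rose slightly in siRpl18 (0.12 ± 0.04, adjusted p = 0.0213). The siRpl14 and siRpl23 values were -0.08 and -0.01 and did not pass. The siRpl18 rise did not pass without siNT replicate 2, without siRpl18 replicate 1, or with only the groups compared in the fit.

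Tyms, thymidylate synthase, was 35.9 and 39.2 FPKM in siRpl11, 31.0 and 33.8 in siRpl14, 28.6 and 29.8 in siRpl18, and 32.9 and 33.1 in siRpl23, against 31.8 and 34.7 in siNT. It rose by 0.17 ± 0.06 in siRpl11 (adjusted p = 0.03) and fell by 0.18 ± 0.06 in siRpl18 (adjusted p = 0.0239). Each call ended when a library was left out: siNT replicate 1 or siRpl11 replicate 2 for siRpl11, and siNT replicate 2 or siRpl18 replicate 1 for siRpl18. Tk1, thymidine kinase, fell in siRpl11, siRpl18 and siRpl23 (-0.36, -0.19 and -0.15), and Slbp, the histone stem-loop binding protein, fell in siRpl18 (-0.13) with no call in the others. The Tk1 call in siRpl18 ended without siNT replicate 2 or siRpl18 replicate 2, and that in siRpl23 under 5 alternatives, among them leaving out siNT replicate 2 or either siRpl23 library. The Slbp call ended without siNT replicate 2, without siRpl18 replicate 1, or with only the groups compared in the fit.

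Of the G1-S regulators, Ccnd3 and E2f1 gave the largest falls shared by all knockdowns. Ccnd3, a D-type cyclin, was 103 FPKM in both siRpl11 libraries, 131 and 133 in siRpl14, 121 in both siRpl18 libraries, and 120.0 and 126 in siRpl23, against 198 and 197 in siNT. The groups did not overlap with siNT, and siRpl11 was lowest. Ccnd3 changed by -0.93 ± 0.04 in siRpl11, -0.58 ± 0.04 in siRpl14, -0.71 ± 0.04 in siRpl18 and -0.68 ± 0.04 in siRpl23 (adjusted p = 3.62e-08, 7.1e-07, 1.45e-07 and 2.03e-07). In the third libraries it was 112, 137, 129 and 124 FPKM in siRpl11, siRpl14, siRpl18 and siRpl23, against 194 in siNT. E2f1, an activator of S-phase genes and picked after its values were seen, was 13.1 to 15.3 FPKM in all 8 knockdown libraries, against 24.6 and 22.9 FPKM in siNT, and changed by -0.76 to -0.68.

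The E-type cyclin Ccne1, which drives S-phase entry with Cdk2, fell in all 4 knockdowns, by 0.47 ± 0.04 in siRpl11, 0.24 ± 0.04 in siRpl14, 0.38 ± 0.04 in siRpl18 and 0.26 ± 0.04 in siRpl23. Ccne2, at 3.26 FPKM in siNT the lowest of the 45, fell in siRpl11, siRpl14 and siRpl18, and at -0.30 in siRpl23 it had an adjusted p of 0.0506. Its siRpl14 call ended without either siNT library or siRpl14 replicate 2, and its siRpl18 call without either siNT library or siRpl18 replicate 1, with no filter, and with a pseudocount of 0.1. Ccnd1, a further D-type cyclin, moved the other way. It was 38.1 and 35.6 FPKM in siRpl11, 46.8 and 44.7 in siRpl14, 51.0 and 55.2 in siRpl18, and 44.9 and 45.7 in siRpl23, against 38.6 and 38.7 in siNT, so it rose in siRpl14, siRpl18 and siRpl23 (0.24, 0.45 and 0.23). Ccnd2, the remaining D-type cyclin and not a member, was picked after its values were seen and rose in the same 3 knockdowns (0.81, 0.71 and 0.92). It was low, at 3.90 FPKM in siNT. In the third libraries Ccnd2 was 4.46, 5.05 and 5.86 FPKM in siRpl14, siRpl18 and siRpl23, against 4.34 FPKM in siNT. The siRpl14 value there lay close to that of siNT. For Ccnd1, the third libraries did not show the order above in siRpl14 and siRpl23. There Ccnd1 was 35.9, 37.9, 54.4 and 36.3 FPKM in siRpl11, siRpl14, siRpl18 and siRpl23, against 52.0 FPKM in siNT. With all 15 libraries Ccnd1 did not pass in siRpl14 or siRpl23, where the value was -0.02.

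The split between siRpl11 and the other knockdowns was tested directly, as siRpl11 minus the mean of siRpl14, siRpl18 and siRpl23, a contrast that uses no siNT library. Of the 45 genes, 25 were higher in siRpl11 and 9 lower, whereas 18.4% of all tested genes were higher, 44.2% lower and 62.6% either. The members' median difference was 0.11, and that of all genes was -0.12. Median-ratio scaling, which moved the median of all genes to 0.01, gave 32 higher and 6 lower. Of all 12249 genes, 3921 were then higher and 3796 lower. In the third libraries 33 of these 34 differences had the same sign, against 96.7% of all genes that passed. The differences furthest from 0 were Pola1 (0.64 ± 0.04, adjusted p = 4.53e-07) and Pola2 (-0.72 ± 0.04, adjusted p = 2.27e-07), the only members past 0.5 in size. Next among the higher ones, picked after their values were seen, were Mcm5 (0.45), Cdt1 (0.41), Rfc4 (0.41) and Mcm10 (0.35), and among the lower ones Ccnd1 (-0.37), Rrm2 (-0.34) and Mcm7 (-0.30).

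By role, licensing genes were 8 higher and 1 lower of 11 in siRpl11, and polymerases and primase 6 higher and 2 lower of 8. Clamp and loader genes were 3 higher of 6, helicase activation genes 2 higher of 5, RPA genes 2 higher of 3, and both Okazaki maturation genes were higher. Genes for deoxynucleotides and histone mRNA were 2 higher and 2 lower of 5, with Rrm2 and Tk1 lower. Of all tested genes, 18.4% were higher and 44.2% lower. Of the 5 G1-S regulators, 4 were lower (Ccne1, Ccne2, Ccnd1 and Ccnd3), with E2f1 at -0.05 ± 0.06. The Ccne2 call ended under 12 of 18 alternative settings and that of Ccne1 under median-ratio scaling. Calls also ended for Rpa1 under 6 alternatives, Rfc1 under 5, Rrm1 under 3 and Rfc3 under 2. Those of Orc6, Pold1 and Tk1 ended under 1 each. Of the genes whose promoter windows held E2F letters, 15 were higher and 1 lower of 20, with a median of 0.22. Of those without the letters, 7 were higher and 5 lower of 16, with a median of 0.06. Mcm7 was the 1 gene with the letters that was lower. These shares by promoter are descriptions of the matched genes, with no test.

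**Figure D4:**
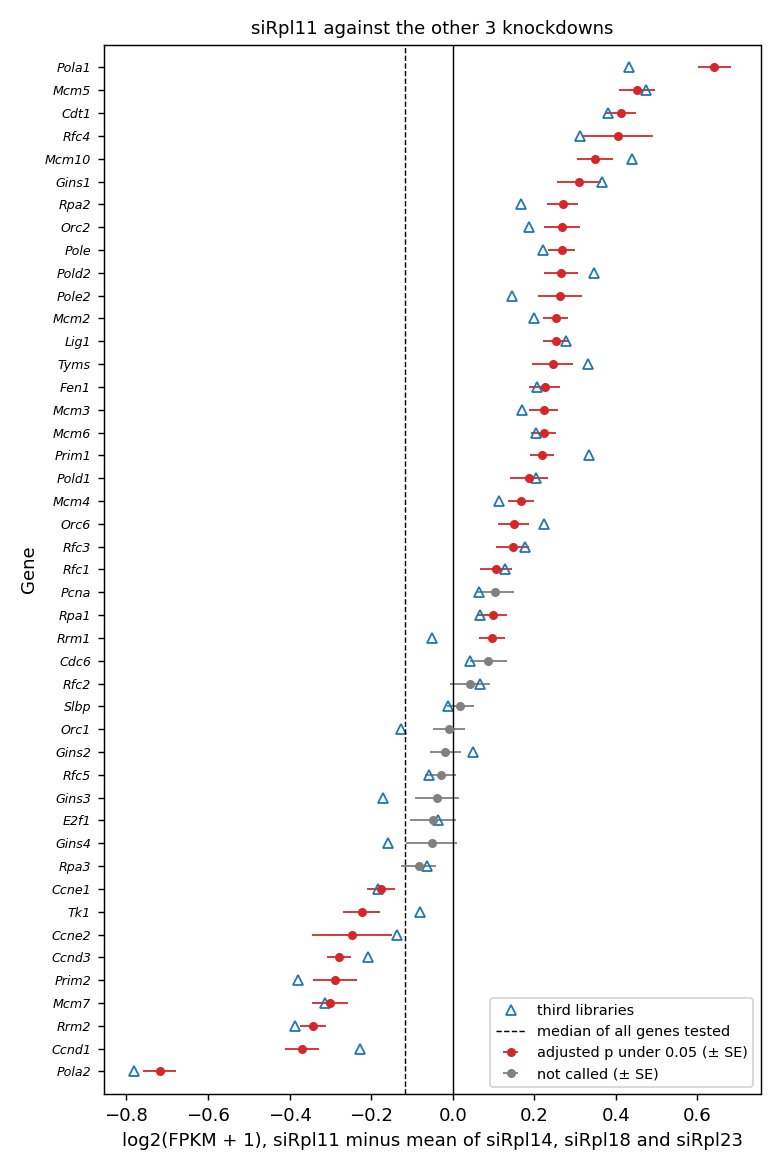
Difference in log2(FPKM + 1) between siRpl11 and the mean of siRpl14, siRpl18 and siRpl23 for the 45 genes, sorted, with points and bars for the estimate and its SE (red at an adjusted p under 0.05), open triangles for the third libraries and a dashed line at the median of all tested genes (-0.12). Most genes lie to the right of 0, from Pola1 (0.64) down, and Pola2 (-0.72) stands apart at the left.

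Among siRpl14, siRpl18 and siRpl23 themselves, the moderated F test passed for 4 of 45 genes, Pola1, Rpa3, Rrm2 and Ccnd1, against 10.1% of all tested genes. Rrm2 and Ccnd1 were highest in siRpl18, Rpa3 lowest in siRpl18, and Pola1 lowest in siRpl14. The adjusted p was 0.027 for Rrm2, 0.0306 for Rpa3, 0.0321 for Pola1 and 0.0325 for Ccnd1. The count rests on few libraries: it fell when any single library of these 3 groups was left out. The share of all tested genes that passed fell as well in each of these fits. With only the groups compared in the fit the count was 0, and the share of all tested genes was 6.1%.

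Other genes of the same processes showed both directions. These lists were also drawn up by function, with earlier results of these data known. Their counts read against the shares of all tested genes. In siRpl11, siRpl14, siRpl18 and siRpl23, 43.6%, 29.5%, 34.7% and 30.8% of all genes fell, and 27.3%, 33.3%, 32.8% and 34.9% rose. Of 29 further replication genes, 12 fell and 7 rose in siRpl11, 14 and 4 in siRpl14, 15 and 5 in siRpl18, and 14 and 8 in siRpl23. The share that fell was 41.4% in siRpl11, near that of all genes, and 48.3%, 51.7% and 48.3% in siRpl14, siRpl18 and siRpl23. Gmnn, the licensing inhibitor that binds Cdt1, was at 88.6 ± 1.36 FPKM in siRpl11, 85.7 in siRpl14 (SD 4.0), 78.0 ± 5.84 in siRpl18 and 83.9 ± 1.11 in siRpl23, against 129 ± 7.97 in siNT (SD, n = 2 each). Rnaseh2a, of the enzyme that removes ribonucleotides from DNA, fell with it (-0.74, -0.41, -0.57 and -0.44 in siRpl11, siRpl14, siRpl18 and siRpl23). Orc5 rose by 0.72 in siRpl11 and by 0.23, 0.26 and 0.31 in siRpl14, siRpl18 and siRpl23, and Pole4, a small subunit of polymerase epsilon, rose by 0.59 and by 0.27, 0.31 and 0.37. In the third libraries Orc5 was 57.9 FPKM in siRpl11 and 44.7 to 50.1 FPKM in the other knockdowns, against 46.7 FPKM in siNT, so siRpl18 and siRpl23 (45.8 and 44.7) went the other way. Pole4 did so in 3 knockdowns, at 31.2 FPKM in siRpl11 and 29.9, 28.5 and 26.7 FPKM in siRpl14, siRpl18 and siRpl23, against 30.6 FPKM in siNT.

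Of 21 further genes for nucleotide synthesis, 4 fell and 5 rose in siRpl11, 7 and 3 in siRpl14, 12 and 3 in siRpl18, and 8 and 4 in siRpl23, so that 19.0%, 33.3%, 57.1% and 38.1% fell. Cad, which starts pyrimidine synthesis, rose by 0.44, 0.74, 0.64 and 0.74 in siRpl11, siRpl14, siRpl18 and siRpl23, and Mthfd1, a folate enzyme, by 0.15, 0.33, 0.33 and 0.38. Shmt2, the mitochondrial serine hydroxymethyltransferase, fell by 1.07, 0.85, 0.91 and 0.99, and Paics, a purine enzyme, by 0.38, 0.48, 0.60 and 0.49. Of 12 genes for replication-coupled chromatin, 5 fell and 4 rose in siRpl11, 7 and 3 in siRpl14, 6 and 2 in siRpl18, and 7 and 2 in siRpl23, so that 41.7% to 58.3% fell. The histone chaperones split, with Chaf1b falling (-0.62, -0.49, -0.57 and -0.51) and Asf1a rising (0.78, 0.47, 0.49 and 0.47). Asf1a in the third libraries was 39.6 and 30.7 FPKM in siRpl11 and siRpl14 but 26.8 and 26.1 FPKM in siRpl18 and siRpl23, against 28.5 FPKM in siNT. Uhrf1, which recruits the maintenance methyltransferase, fell by 0.42 to 0.61. Hells, a chromatin remodeller, rose in siRpl11 (0.78), did not pass in the others, and stood 0.73 above the mean of the other knockdowns (adjusted p = 1.76e-06).

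Of 33 tested G1-S regulators outside the 45, 11 fell and 9 rose in siRpl11, 16 and 11 in siRpl14, 12 and 10 in siRpl18, and 11 and 10 in siRpl23. The shares that fell (33.3%, 48.5%, 36.4% and 33.3%) and rose (27.3%, 33.3%, 30.3% and 30.3%) lay near or below those of all genes, apart from the falls in siRpl14. Cdkn2b, an inhibitor of cyclin D kinases, averaged 4.28 ± 0.386 FPKM in siRpl11, 17.3 ± 0.782 in siRpl14, 14.7 ± 1.25 in siRpl18 and 16.3 ± 0.0201 in siRpl23, against 0.749 ± 0.211 in siNT (SD, n = 2 each). Rb1, the retinoblastoma protein itself, averaged 4.13 ± 0.123 FPKM in siRpl11, 10.8 ± 0.655 in siRpl14, 13.5 ± 0.223 in siRpl18 and 12.0 ± 0.425 in siRpl23, against 2.63 ± 0.428 in siNT. Both were lower in siRpl11 than in the mean of the other knockdowns, with log2 differences of -1.69 for Cdkn2b (adjusted p = 5.14e-08) and -1.34 for Rb1 (adjusted p = 1.08e-07). E2f2, a further activator E2F, fell by 1.65, 1.04, 0.99 and 1.13 in siRpl11, siRpl14, siRpl18 and siRpl23, and Mybl2, a cell-cycle transcription factor, by 0.61, 0.67, 0.70 and 0.62.

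Of 16 S-phase checkpoint genes, 7 fell and 2 rose in siRpl11, 10 and 2 in siRpl14, 10 and 3 in siRpl18, and 9 and 3 in siRpl23. The share that fell was 43.8% in siRpl11, that of all genes within 1 gene, and 62.5%, 62.5% and 56.2% in the other 3. Brca1 and Fanca, of the repair of broken and crosslinked DNA, fell in all 4 knockdowns (-0.80 to -0.68 and -0.87 to -0.62). Rad9a and Rad1, of the checkpoint clamp, rose in siRpl14, siRpl18 and siRpl23 (0.19, 0.31 and 0.20, and 0.17, 0.18 and 0.19). Of 28 genes of the next transition, G2-M, 16 fell and 6 rose in siRpl11, 22 and 0 in siRpl14, 17 and 3 in siRpl18, and 20 and 2 in siRpl23, so that 57.1%, 78.6%, 60.7% and 71.4% fell. Kif23, a motor of cell division, fell by 0.69, 0.69, 0.54 and 0.65, and Cdc25b, a phosphatase that opens mitosis, by 0.66, 0.57, 0.62 and 0.70. Cdc20 and Ndc80, of the spindle checkpoint and the kinetochore, rose in siRpl11, siRpl18 and siRpl23 (0.14, 0.30 and 0.20, and 0.45, 0.27 and 0.17).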

How the data were processed

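RNA libraries were made with a kit for stranded mRNA, per the labels' protocols. The authors deposited FPKM values per gene; the submitters' processing notes name STAR, Cuffnorm and mm9, while tool versions and the gene annotation were not given in the sources used here. FPKM was normalized separately in each of 2 tables, of 10 and 5 libraries, and 2 further columns that matched no sample were not used. Genes with at least 1 FPKM in at least 2 of the 10 libraries were tested on log2(FPKM + 1) with limma 3.58.1 (lmFit, contrasts.fit and eBayes with a trend) in R 4.3.3, with all 5 groups in 1 fit, 5 residual degrees of freedom and Benjamini-Hochberg adjustment over 12249 genes. A fold change on this scale understates that of low genes. The procedure was tested on simulated data with few genes changed, in siRpl11 alone. A setting in which most genes change was not simulated. Relative depth was read from the FPKM worth of 1 read, as the most common ratio among low genes. Apart from the siNT reference libraries, only 4 to 16 genes per library shared that ratio. Promoters came from RefSeq (GRCm38.p6), with no conversion from mm9. Sequences and figures used Python 3.11.15, pandas 2.3.3 and matplotlib 3.10.9. The members, the further lists and the promoter letters were chosen with earlier results of these data known. Genes named by rule were, per role, the one with the highest mean and the called one with the largest change in any knockdown, with those called in opposite directions and those at least 0.5 apart between siRpl11 and the other knockdowns. Other named members were picked after their values were seen. From each further list, the 2 with the largest mean rise and the 2 with the largest mean fall were named. The 18 alternatives covered filter, pseudocount, scaling, samples fitted, a replicate block and each library left out.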

Additional observations from a re-analysis of the deposited data

How the results depend on the processing

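Leaving out each of the 10 libraries in turn gave 31 to 35 members called in siRpl11, 33 to 35 in siRpl14, 36 to 42 in siRpl18, 31 to 35 in siRpl23, 28 to 34 for siRpl11 against the other knockdowns, and 0 to 4 for the F test among siRpl14, siRpl18 and siRpl23. The share of all tested genes called varied too in these fits and was mostly lower than in the main fit. In the order above, the main-fit shares were 70.9%, 62.8%, 67.6%, 65.7%, 62.6% and 10.1%. The F count was 2 with no filter, 0 with only the groups compared and 9 with the replicate block. Of all genes, 4.21%, 6.1% and 18% passed the F test there. Whether libraries with the same replicate number belong together was not settled, and the main fit had no replicate term. Deviations of same-numbered libraries correlated at -0.086 to 0.195. The replicate block gave 35, 36, 43, 37 and 35 calls in the other comparisons, in the order above. Over all tested genes it raised the share called in each of these, to 74.3%, 67.5%, 71.6%, 69.8% and 67.2%. In the F test that share went from 10.1% to 18%. In siRpl11 against the other knockdowns, Orc1, Gins2 and Rfc5 changed sign and passed under median-ratio scaling, at 0.14, 0.13 and 0.12. Ccne2 changed sign and lost its call there under quantile normalization, at 0.063. Ccnd1 in siRpl23 changed sign and lost its call with all 15 libraries, at -0.018. The cause of these changes was not tested. Calls held under all 18 alternatives for 23 of 34 members in siRpl11, 30 of 34 in siRpl14, 34 of 42 in siRpl18, 29 of 35 in siRpl23 and 25 of 34 in siRpl11 against the others. A further 23 of 225 differences changed sign under an alternative without passing in either fit. With unknown depth, no counting error can be given, and 2 libraries per group limit precision.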
